A study of Mus musculus with 12 samples.

Results

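The 45 genes described here encode proteins of the synaptic vesicle and of the machinery that docks, primes, fuses and recycles it. They were chosen by symbol from the families of the synapsins, synaptotagmins, SNAREs, active zone proteins and vesicle transporters and the proteins that work with them. The choice was made with earlier results of these data known. All 45 were found among the 24411 genes of the deposited tables, and all 45 passed the filter on low counts that left 14311 genes for testing.

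The tissue was cerebral cortex taken from single mouse embryos, 1 library per embryo, with 3 embryos in each of 4 groups. The groups were wild type (WT) at the embryonic stage E12.5, HARE5Hs/Hs at E12.5, WT at E14.5 and HARE5Hs/Hs at E14.5. The enhancer HARE5 acts on Fzd8, the gene of a Wnt receptor, and the label Hs/Hs marks embryos with 2 copies of its human form. Whole cortex was sampled, so progenitors and neurons were not separated. No treatment is labelled, and the labels name neither strain nor litter.

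At a synapse, vesicles filled with transmitter are held near the release site, docked at the active zone and made ready to fuse. Calcium entry then acts on synaptotagmins, which drive the SNARE proteins of vesicle and plasma membrane to merge both membranes, and the emptied vesicle is taken up again by endocytosis. In the embryonic cortex neurons are being born from radial glia over these days and most have not yet formed mature synapses, but many of these genes are already transcribed in young neurons, where several of the proteins also serve axon growth and membrane traffic.

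Total expected counts per library ran from 11593202 to 17670103. The tissue showed the markers of its label: 8 of 8 excitatory cortical neuron markers were measured, and 10 of 10 radial glia markers summed to between 2654 and 3711 CPM (counts scaled to library size, with TMM factors) in every library. No listed marker was at 0 in all libraries, but only 2 of 5 peripheral and cranial sensory neuron markers passed the filter on low counts. From E12.5 to E14.5 all 8 excitatory neuron markers rose in each genotype, with median log2 fold changes of 2.04 in WT and 2.30 in HARE5Hs/Hs. Of 10 radial glia markers 5 fell and 2 rose in WT, and 7 fell and 1 rose in HARE5Hs/Hs. Of 8 meninges and mesenchyme markers 3 fell in WT and 7 fell in HARE5Hs/Hs, and their summed level was between 1170 and 2207 CPM at E12.5 and between 11.1 and 844 CPM at E14.5. Of 7 diencephalon markers 6 fell in WT and 5 in HARE5Hs/Hs. Their summed level was between 114 and 174 CPM at E12.5 and between 32.8 and 82.9 CPM at E14.5. The part of these lists in the age values below was not tested. In bulk tissue fewer cells of a type and less RNA per cell cannot be told apart, and this holds for every value below.

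Between E12.5 and E14.5 most of the 45 genes rose in each genotype, and none fell. A gene is said to rise or fall only where edgeR's quasi-likelihood test gave a Benjamini-Hochberg adjusted p under 0.05 over all 14311 genes. In WT 36 of 45 genes rose and 0 fell, against 20% and 15.2% of all genes tested. In HARE5Hs/Hs 39 of 45 rose and 0 fell, against 23.7% and 22% of all genes tested. The median log2 fold change of the 45 was 1.43 in WT and 1.59 in HARE5Hs/Hs, beside −0.01 and −0.03 over all genes. At least a doubling was seen for 28 of the genes that rose in WT and 34 of those that rose in HARE5Hs/Hs, and at least a 4-fold rise for 11 and 16. Among all 14311 genes, 916 in WT and 1193 in HARE5Hs/Hs rose by at least a doubling, and 334 and 434 by at least 4-fold.

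Libraries were also compared one by one. In WT all 3 E14.5 embryos were above all 3 E12.5 embryos for 38 of 45 genes, a pattern found in 26.1% of all genes. In HARE5Hs/Hs this held for 41 of 45 genes, beside 28.9% of all genes. Together the 45 genes took between 0.125% and 0.181% of all counts at E12.5 and between 0.254% and 0.382% at E14.5. Of 14 pan-neuronal markers, 12 rose in WT and 14 in HARE5Hs/Hs, with medians of 1.29 and 1.49. Their summed level was between 1643 and 2908 CPM at E12.5 and between 3799 and 6500 CPM at E14.5. How far the rise of the 45 genes follows the number of neurons in the tissue was not tested.

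**Figure D1:**
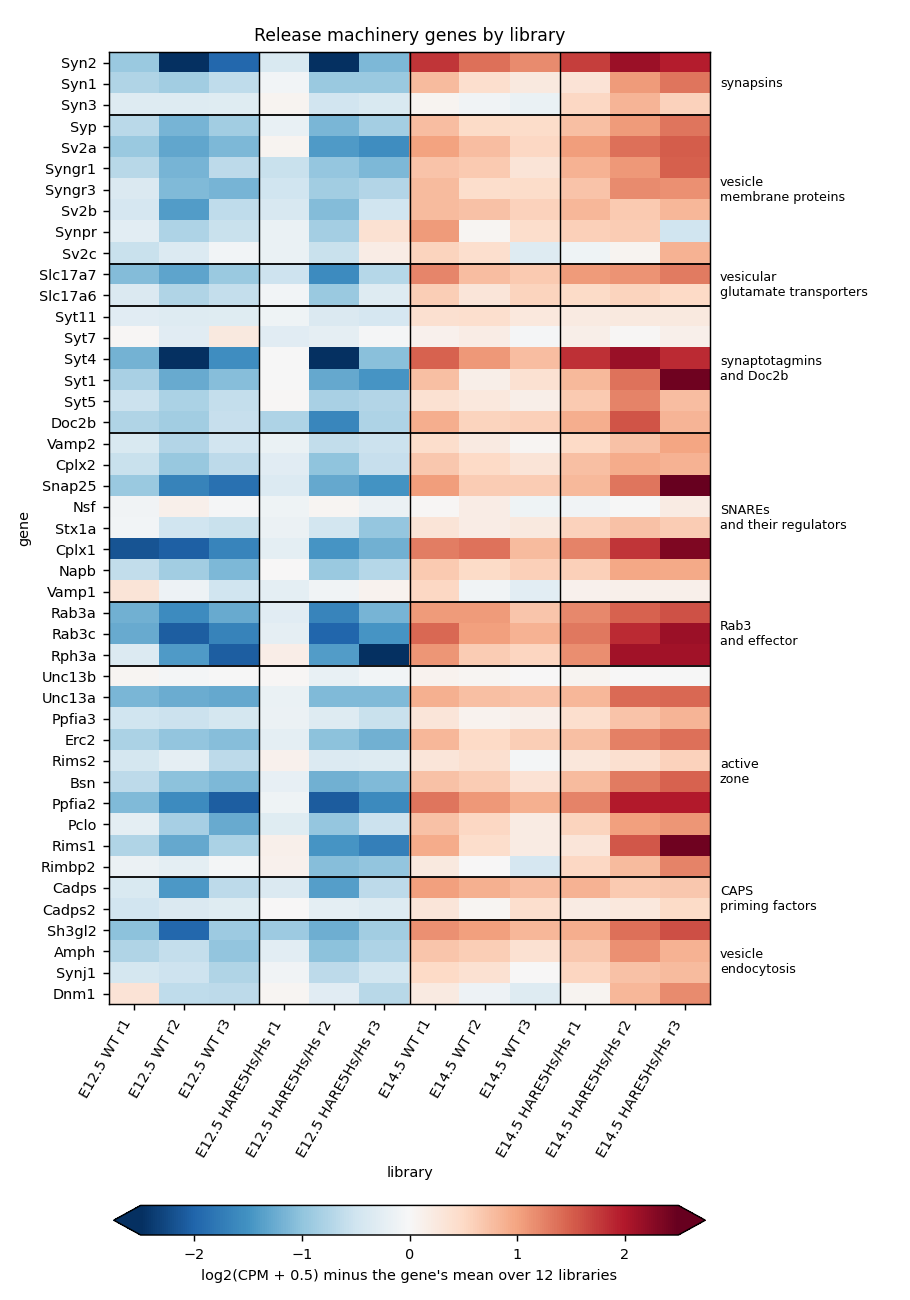
Level of each of the 45 genes (vertical axis, grouped by role) in each of the 12 libraries (horizontal axis), as log2(CPM + 0.5) minus the gene's mean over the 12 libraries. Colours beyond the ends of the scale are drawn at its end colour. The 6 E14.5 libraries are above the mean and the 6 E12.5 libraries below it for most genes, and flat rows mark Unc13b, Nsf and Syt7.

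Levels per transcript length, as the authors' FPKM, set the order of abundance. Syt11 was highest in each of the 4 groups, with a mean over 12 libraries of 97.3 FPKM. Vamp2 (50.1 FPKM), Rab3a (44.2 FPKM), Cplx2 (42.0 FPKM) and Syp (29.2 FPKM) followed. At the other end stood Rimbp2 (1.00 FPKM), Doc2b (0.862 FPKM) and Sv2c (0.231 FPKM), the last of the 45 in each group. Rab3a ranked 8 of 45 in E12.5 WT and 2 of 45 in both E14.5 groups, whereas Unc13b ranked 4 in both E12.5 groups, 8 in E14.5 WT and 13 in E14.5 HARE5Hs/Hs.

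The synapsins coat the vesicle surface and hold vesicles in the reserve pool. In WT 2 of 3 rose, and in HARE5Hs/Hs 3 of 3 rose. For Syn2 the E12.5 levels were 8.16, 1.46 and 3.70 CPM in WT and 12.2, 1.98 and 7.05 CPM in HARE5Hs/Hs, and the E14.5 levels 55.7, 41.8 and 36.7 CPM and 54.1, 72.2 and 63.3 CPM. Every E14.5 embryo was above every E12.5 embryo, and the E12.5 embryos differed among themselves by several-fold. Syn2 rose by 3.34 (SE 0.56, edgeR adjusted p = 0.00103) in WT and by 3.17 (SE 0.54, edgeR adjusted p = 0.000677) in HARE5Hs/Hs. Without E12.5 WT replicate 1 its log2 fold change in WT was 4.10, and without E12.5 HARE5Hs/Hs replicate 1 that in HARE5Hs/Hs was 3.85. Syn1 stood at 12.8, 11.8 and 13.9 CPM in WT and 20.7, 11.3 and 11.2 CPM in HARE5Hs/Hs at E12.5, and at 38.2, 29.2 and 25.8 CPM and 27.8, 46.2 and 55.9 CPM at E14.5. Syn1 rose by 1.28 (SE 0.28, edgeR adjusted p = 0.00455) in WT and by 1.59 (SE 0.28, edgeR adjusted p = 0.000789) in HARE5Hs/Hs, and ages did not overlap in either genotype. For Syn3 the E12.5 levels were 24.5, 24.7 and 24.7 CPM in WT and 32.2, 21.9 and 23.6 CPM in HARE5Hs/Hs, and the E14.5 levels 32.2, 28.8 and 27.4 CPM and 44.5, 56.0 and 46.0 CPM. The 3 E12.5 WT embryos lay close together and the 3 E14.5 HARE5Hs/Hs embryos stood above all others. Syn3 rose in HARE5Hs/Hs by 0.92 (SE 0.14, edgeR adjusted p = 0.000385), while in WT the log2 fold change was 0.26 (SE 0.14, edgeR adjusted p = 0.18).

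Promoter sequence is shown for the 4 genes whose window held one of the rarer elements searched. Windows of 300 bases, from 250 before to 50 after the annotated start, came from RefSeq on build GRCm38.p6, which is not the authors' build (mm39). They matched 36 of 45 genes with 47 windows, and for Syn3, Syt4, Syt5, Syt7, Snap25, Vamp2, Rims2, Syngr3 and Doc2b no window was used here. The element RE1 is bound by REST, a repressor that keeps many neuronal genes silent outside neurons. Its left arm TTCAGCACC was found on either strand in 0.371% of all 32851 windows and in those of Syn1, Ppfia3 and Unc13a. Its right arm GGACAG was in 22.2% of all windows and in those of 10 of the 36 genes. Both arms in order with 1 to 3 bases between them were in 0.0122% of all windows and in none of these genes. The search was for exact letters, so an arm with 1 changed letter was not counted. In Syn1 the left arm is followed after 2 bases by ggtcag, which differs from the right arm in 1 letter. The cyclic AMP response element TGACGTCA was in 1.79% of all windows and in those of Syn1 and Sh3gl2. The E-box CAGATG was in 17.2% of all windows and in those of 6 genes, and the box TATAAA was in 13.6% of all windows and in that of Sv2b only among the 36. No 2 of these motifs overlap in the stretches printed here. Capitals mark the RE1 left arm and the cyclic AMP response element in Syn1, the RE1 left arm in Ppfia3, both RE1 arms in Unc13a and the cyclic AMP response element in Sh3gl2. The Syn1 stretch is chrX:20921049-20921168 on the minus strand, from −250 to −131. The Ppfia3 stretch is chr7:45367020-45367119 on the minus strand, from −100 to −1. The Unc13a stretch is chr8:71671727-71671749, from 9 to 31 after the start, read on the plus strand, opposite to the gene, with 8 bases between the arms. The Sh3gl2 stretch is chr4:85205366-85205455 on the plus strand, from −90 to −1. A match is a run of letters and no evidence of binding.
Syn1: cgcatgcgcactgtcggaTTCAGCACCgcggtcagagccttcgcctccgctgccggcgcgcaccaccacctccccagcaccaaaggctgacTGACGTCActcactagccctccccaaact
Ppfia3: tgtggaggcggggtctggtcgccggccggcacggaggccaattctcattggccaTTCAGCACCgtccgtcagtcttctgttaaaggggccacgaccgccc
Unc13a: TTCAGCACCgggggcgcGGACAG
Sh3gl2: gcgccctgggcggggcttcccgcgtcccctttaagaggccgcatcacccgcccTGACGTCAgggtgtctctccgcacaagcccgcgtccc

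Proteins of the vesicle membrane rose in 6 of 7 cases in WT and 5 of 7 in HARE5Hs/Hs, with median log2 fold changes of 1.46 and 1.76. Synaptophysin, encoded by Syp, is an abundant vesicle membrane protein that binds the vesicle SNARE. Syp stood at 35.1, 24.97 and 30.6 CPM in WT and 49.2, 25.3 and 31.0 CPM in HARE5Hs/Hs at E12.5, and at 96.4, 78.7 and 77.3 CPM and 95.3, 117 and 144 CPM at E14.5. Ages did not overlap in either genotype, and Syp rose by 1.48 (SE 0.23, edgeR adjusted p = 0.000618) in WT and by 1.76 (SE 0.23, edgeR adjusted p = 0.000133) in HARE5Hs/Hs. Sv2a encodes a glycoprotein of all synaptic vesicles that binds the antiepileptic drug levetiracetam. For Sv2a the E12.5 levels were 16.5, 12.7 and 14.3 CPM in WT and 33.5, 11.6 and 10.4 CPM in HARE5Hs/Hs, and the E14.5 levels 64.2, 54.2 and 45.6 CPM and 66.1, 83.2 and 91.7 CPM. Within E12.5 HARE5Hs/Hs, replicate 1 stood far above the other two. Sv2a rose by 1.92 (SE 0.35, edgeR adjusted p = 0.0017) in WT and by 2.12 (SE 0.35, edgeR adjusted p = 0.000548) in HARE5Hs/Hs, where the log2 fold change without that replicate was 2.87. Syngr1 stood at 13.1, 9.39 and 13.6 CPM in WT and 14.4, 10.9 and 9.71 CPM in HARE5Hs/Hs at E12.5, and at 35.8, 34.4 and 27.1 CPM and 39.6, 46.4 and 62.0 CPM at E14.5. Syngr1, the gene of a synaptogyrin, a distant relative of synaptophysin, rose by 1.43 (SE 0.21, edgeR adjusted p = 0.000478) in WT and by 2.08 (SE 0.21, edgeR adjusted p = 4.52e-05) in HARE5Hs/Hs. The authors' deposited log2 fold changes for Syngr1 were smaller, 0.86 in WT and 1.51 in HARE5Hs/Hs. Its FPKM, which are per transcript length, also rose less than its CPM, which are not. In WT they were 6.34, 5.07 and 8.06 FPKM at E12.5 and 12.2, 12.4 and 10.7 FPKM at E14.5. In HARE5Hs/Hs they were 7.81, 6.40 and 4.75 FPKM and then 13.3, 16.2 and 24.5 FPKM. The part of transcript length in the rise of Syngr1 by counts was not tested. Syngr3, a relative of Syngr1, rose by 1.46 and 1.79, and Sv2b by 1.51 and 1.44, on the log2 scale in WT and HARE5Hs/Hs.

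Synpr and Sv2c broke this pattern. For Synpr the E12.5 levels were 5.11, 3.44 and 4.08 CPM in WT and 5.504, 3.24 and 8.25 CPM in HARE5Hs/Hs, and the E14.5 levels 13.7, 6.48 and 8.63 CPM and 9.67, 9.99 and 4.28 CPM. Synpr encodes synaptoporin, a relative of synaptophysin, and its E14.5 HARE5Hs/Hs replicate 3 was below 2 of the 3 E12.5 embryos of the same genotype. Synpr rose in WT by 1.19 (SE 0.41, edgeR adjusted p = 0.0384), whereas its HARE5Hs/Hs log2 fold change was 0.51 (SE 0.40, edgeR adjusted p = 0.32). The rise in WT was lost when any of 5 of its 6 libraries was left out (all but E14.5 replicate 2), and was at its smallest, 0.82 with edgeR adjusted p = 0.183, without E14.5 WT replicate 1. Sv2c stood at 0.436, 0.583 and 0.816 CPM in WT and 0.734, 0.439 and 1.06 CPM in HARE5Hs/Hs at E12.5, and at 1.53, 1.35 and 0.597 CPM and 0.771, 0.945 and 2.00 CPM at E14.5. Sv2c was the lowest of the 45 genes in every group and its ages overlapped. Its log2 fold changes were 0.91 (SE 0.58, edgeR adjusted p = 0.244) in WT and 0.71 (SE 0.58, edgeR adjusted p = 0.33) in HARE5Hs/Hs, and neither passed. The same E14.5 HARE5Hs/Hs replicate 3 had the lowest sums of choroid plexus and hem markers (1.82 CPM, against 68.6 to 731 in the other E14.5 libraries) and of meninges and mesenchyme markers (11.1 CPM), and their part in its values was not tested.

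Vesicular glutamate transporters load vesicles with glutamate, and both genes rose in both genotypes. For Slc17a7 the E12.5 levels were 15.1, 12.9 and 17.1 CPM in WT and 22.7, 10.6 and 19.7 CPM in HARE5Hs/Hs, and the E14.5 levels 77.1, 55.9 and 51.6 CPM and 69.2, 71.8 and 81.3 CPM. Slc17a6 stood at 43.8, 33.6 and 37.2 CPM in WT and 54.2, 29.5 and 45.4 CPM in HARE5Hs/Hs at E12.5, and at 87.3, 70.4 and 83.9 CPM and 79.3, 84.2 and 79.8 CPM at E14.5. For each gene every E14.5 embryo was above every E12.5 embryo. Slc17a7 (VGLUT1), the main form of the adult cortex, rose by 2.04 (SE 0.24, edgeR adjusted p = 0.000173) in WT and by 2.07 (SE 0.24, edgeR adjusted p = 7.64e-05) in HARE5Hs/Hs. Slc17a6 (VGLUT2), the main form of subcortical neurons in the adult, rose by 1.08 (SE 0.18, edgeR adjusted p = 0.000967) in WT and by 0.92 (SE 0.18, edgeR adjusted p = 0.00145) in HARE5Hs/Hs.

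Synaptotagmins and Doc2b, a family that holds the calcium sensors of release and relatives that bind calcium poorly or not at all, rose in 5 of 6 cases in each genotype, with medians of 1.23 in WT and 1.95 in HARE5Hs/Hs. For Syt1 the E12.5 levels were 17.4, 12.55 and 14.6 CPM in WT and 30.6, 12.46 and 10.7 CPM in HARE5Hs/Hs, and the E14.5 levels 52.1, 34.3 and 40.3 CPM and 54.1, 79.8 and 169 CPM. Syt1 encodes the fast calcium sensor of synchronous release, and its highest level was that of E14.5 HARE5Hs/Hs replicate 3. Syt1 rose by 1.51 (SE 0.43, edgeR adjusted p = 0.018) in WT and by 2.49 (SE 0.44, edgeR adjusted p = 0.000774) in HARE5Hs/Hs. Without E12.5 HARE5Hs/Hs replicate 1 the latter was 3.13, and without E14.5 HARE5Hs/Hs replicate 3 it was 1.91. In WT the call was lost without E12.5 replicate 2 (1.41), E12.5 replicate 3 (1.51) or E14.5 replicate 1 (1.31). Syt4 stood at 11.6, 3.15 and 8.85 CPM in WT and 26.8, 4.28 and 12.8 CPM in HARE5Hs/Hs at E12.5, and at 76.0, 57.4 and 46.3 CPM and 97.2, 123 and 100.04 CPM at E14.5. Syt4, a synaptotagmin with a changed residue in a calcium-binding loop, rose by 2.93 (SE 0.53, edgeR adjusted p = 0.00157) in WT and by 2.87 (SE 0.51, edgeR adjusted p = 0.000864) in HARE5Hs/Hs, and without E12.5 HARE5Hs/Hs replicate 1 the latter was 3.68.

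For Syt11 the E12.5 levels were 345, 336 and 338 CPM in WT and 387, 325 and 311 CPM in HARE5Hs/Hs, and the E14.5 levels 555, 557 and 499 CPM and 488, 495 and 491 CPM. Syt11 encodes a synaptotagmin that does not bind calcium, and its SE was the smallest among these 6 genes. It rose by 0.66 (SE 0.08, edgeR adjusted p = 0.000214) in WT and by 0.53 (SE 0.08, edgeR adjusted p = 0.000356) in HARE5Hs/Hs. Syt7 stood at 85.1, 68.7 and 99.5 CPM in WT and 68.8, 71.6 and 82.5 CPM in HARE5Hs/Hs at E12.5, and at 90.7, 94.8 and 81.8 CPM and 92.9, 85.5 and 91.4 CPM at E14.5. Syt7 encodes a slow, high-affinity sensor of asynchronous release, and its ages overlapped in WT. Its log2 fold changes were 0.08 (SE 0.12, edgeR adjusted p = 0.645) in WT and 0.28 (SE 0.12, edgeR adjusted p = 0.0784) in HARE5Hs/Hs, and neither passed, although the latter did (0.27, edgeR adjusted p = 0.0416) when only the compared libraries were fitted. Syt5 rose by 0.96 and 1.41 and Doc2b, a soluble high-affinity sensor, by 1.68 and 2.59, on the log2 scale in WT and HARE5Hs/Hs.

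**Figure D2:**
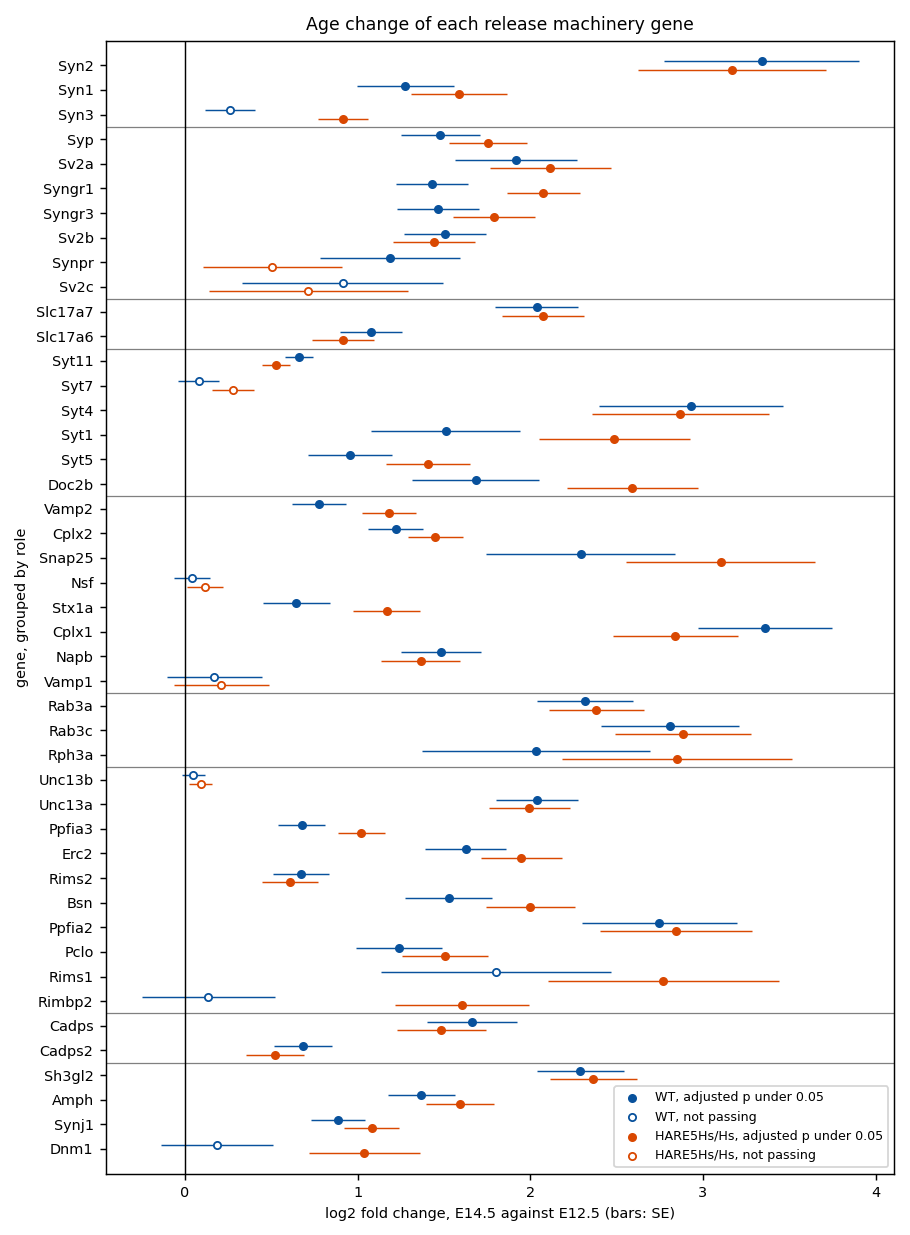
Log2 fold change of each gene from E12.5 to E14.5 (horizontal axis) with its SE as bars, in WT (blue) and HARE5Hs/Hs (orange), genes grouped by role on the vertical axis. Filled points passed an edgeR adjusted p of 0.05 and open points did not. All points are above 0, and open points in both genotypes belong to Sv2c, Syt7, Nsf, Vamp1 and Unc13b.

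SNARE proteins and their regulators rose in 6 of 8 cases in each genotype, with medians of 1.00 in WT and 1.27 in HARE5Hs/Hs. The core complex pairs synaptobrevin on the vesicle (Vamp1, Vamp2) with syntaxin and SNAP-25 on the plasma membrane. For Vamp2 the E12.5 levels were 70.2, 54.8 and 65.8 CPM in WT and 82.2, 59.9 and 62.9 CPM in HARE5Hs/Hs, and the E14.5 levels 125, 107 and 94.7 CPM and 130.2, 152 and 183 CPM. Ages did not overlap, and Vamp2 rose by 0.78 (SE 0.16, edgeR adjusted p = 0.0029) in WT and by 1.18 (SE 0.16, edgeR adjusted p = 0.000154) in HARE5Hs/Hs. Snap25 stood at 11.6, 6.71 and 5.83 CPM in WT and 17.8, 9.002 and 7.65 CPM in HARE5Hs/Hs at E12.5, and at 47.1, 35.5 and 35.6 CPM and 40.0, 58.3 and 199 CPM at E14.5. Within E14.5 HARE5Hs/Hs, replicate 3 stood several-fold above the other two. Snap25 rose by 2.29 (SE 0.55, edgeR adjusted p = 0.00715) in WT and by 3.10 (SE 0.55, edgeR adjusted p = 0.000779) in HARE5Hs/Hs, and without that replicate the latter was 2.11. Stx1a, the syntaxin gene, rose by 0.64 and 1.17 on the log2 scale in WT and HARE5Hs/Hs, and its call in WT was lost without E12.5 replicate 2 (0.59), E12.5 replicate 3 (0.57) or E14.5 replicate 1 (0.59).

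Complexins clamp and then assist the assembled SNARE complex. For Cplx2 the E12.5 levels were 121, 92.0 and 112 CPM in WT and 145, 88.6 and 118 CPM in HARE5Hs/Hs, and the E14.5 levels 283, 252 and 221 CPM and 299, 337 and 326 CPM. Cplx2 rose by 1.22 (SE 0.16, edgeR adjusted p = 0.000277) in WT and by 1.45 (SE 0.16, edgeR adjusted p = 6.35e-05) in HARE5Hs/Hs, with no overlap of ages. Cplx1 stood at 1.74, 1.93 and 2.70 CPM in WT and 7.95, 3.13 and 3.86 CPM in HARE5Hs/Hs at E12.5, and at 23.8, 25.03 and 16.8 CPM and 23.1, 34.2 and 50.02 CPM at E14.5. Cplx1 had the largest log2 fold change of the 45 in WT, where it rose by 3.36 (SE 0.39, edgeR adjusted p = 0.000157), and it rose by 2.84 (SE 0.36, edgeR adjusted p = 0.000129) in HARE5Hs/Hs. Nsf encodes the ATPase that takes spent SNARE complexes apart in all cells, and Napb the brain form of its adaptor SNAP. For Nsf the E12.5 levels were 60.4, 70.0 and 62.9 CPM in WT and 59.6, 66.3 and 57.9 CPM in HARE5Hs/Hs, and the E14.5 levels 65.6, 73.1 and 59.9 CPM and 60.6, 64.1 and 74.5 CPM. Nsf stayed within a narrow range and its ages overlapped, with log2 fold changes of 0.04 (SE 0.10, edgeR adjusted p = 0.796) in WT and 0.11 (SE 0.10, edgeR adjusted p = 0.388) in HARE5Hs/Hs. Napb rose by 1.48 and 1.37 on the log2 scale. Vamp1 stood at 8.22, 5.89 and 4.39 CPM in WT and 5.32, 6.04 and 6.92 CPM in HARE5Hs/Hs at E12.5, and at 9.49, 6.07 and 5.24 CPM and 6.94, 7.09 and 7.11 CPM at E14.5. Vamp1, the form of spinal cord and brainstem in the adult, did not pass, with log2 fold changes of 0.17 (SE 0.27, edgeR adjusted p = 0.664) in WT and 0.21 (SE 0.28, edgeR adjusted p = 0.558) in HARE5Hs/Hs.

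Active zone genes rose in 7 of 10 cases in WT and 9 of 10 in HARE5Hs/Hs, with medians of 1.38 and 1.77. Munc13 proteins open syntaxin so that vesicles can be primed. For Unc13a the E12.5 levels were 18.0, 16.8 and 16.4 CPM in WT and 36.0, 18.6 and 18.5 CPM in HARE5Hs/Hs, and the E14.5 levels 75.8, 68.2 and 66.6 CPM and 72.4, 109 and 110.0 CPM. Its ages did not overlap, and Unc13a, the main form of excitatory forebrain synapses, rose by 2.04 (SE 0.24, edgeR adjusted p = 0.000166) in WT and by 1.99 (SE 0.23, edgeR adjusted p = 8.6e-05) in HARE5Hs/Hs. Unc13b stood at 131, 122 and 126 CPM in WT and 129.7, 112 and 122 CPM in HARE5Hs/Hs at E12.5, and at 134, 130.4 and 128 CPM and 132, 128 and 126 CPM at E14.5. All 12 libraries of Unc13b lay close together, with log2 fold changes of 0.05 (SE 0.07, edgeR adjusted p = 0.621) in WT and 0.09 (SE 0.07, edgeR adjusted p = 0.298) in HARE5Hs/Hs. For Ppfia3 the E12.5 levels were 20.0, 19.2 and 20.8 CPM in WT and 25.6, 22.5 and 19.0 CPM in HARE5Hs/Hs, and the E14.5 levels 34.8, 30.0 and 31.1 CPM and 38.1, 46.6 and 51.6 CPM. Ppfia3 encodes a liprin-α, a scaffold that builds the active zone, and rose by 0.68 (SE 0.14, edgeR adjusted p = 0.00273) in WT and by 1.02 (SE 0.13, edgeR adjusted p = 0.000147) in HARE5Hs/Hs.

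RIM proteins and RIM-binding proteins tie calcium channels to the release site. Rims1 stood at 1.49, 0.875 and 1.44 CPM in WT and 3.18, 0.714 and 0.532 CPM in HARE5Hs/Hs at E12.5, and at 5.91, 4.05 and 3.39 CPM and 3.62, 9.31 and 17.6 CPM at E14.5. The ages of Rims1 did not overlap in either genotype, though E12.5 HARE5Hs/Hs replicate 1 came close to E14.5 replicate 1. Rims1 rose in HARE5Hs/Hs by 2.77 (SE 0.67, edgeR adjusted p = 0.00519), and its log2 fold change in WT was 1.80 (SE 0.67, edgeR adjusted p = 0.0522), just short of the threshold. The value in HARE5Hs/Hs was 4.01 without E12.5 replicate 1 and 2.14 without E14.5 replicate 3. For Rimbp2 the E12.5 levels were 3.24, 3.03 and 3.51 CPM in WT and 3.97, 1.48 and 1.60 CPM in HARE5Hs/Hs, and the E14.5 levels 4.45, 3.71 and 2.59 CPM and 5.46, 6.68 and 9.38 CPM. Rimbp2 overlapped between ages in WT, where its log2 fold change was 0.13 (SE 0.38, edgeR adjusted p = 0.814), and rose in HARE5Hs/Hs by 1.60 (SE 0.39, edgeR adjusted p = 0.00543). Without E12.5 HARE5Hs/Hs replicate 1 the latter was 2.23. The remaining active zone genes rose in both genotypes. On the log2 scale in WT and HARE5Hs/Hs, the giant scaffolds Bsn and Pclo rose by 1.53 and 2.00 and by 1.24 and 1.51. Erc2 rose by 1.63 and 1.95, Rims2 by 0.67 and 0.61, and the liprin gene Ppfia2 by 2.75 and 2.84, or 3.74 in HARE5Hs/Hs without E12.5 replicate 1.

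Rab3 proteins are the GTPases of the vesicle surface and rabphilin, encoded by Rph3a, binds them. All 3 genes rose in both genotypes, with medians of 2.32 in WT and 2.85 in HARE5Hs/Hs, the highest of the 9 role groups. Rab3a stood at 17.1, 13.1 and 16.4 CPM in WT and 32.6, 12.4 and 17.5 CPM in HARE5Hs/Hs at E12.5, and at 83.4, 84.1 and 64.4 CPM and 92.2, 112 and 122 CPM at E14.5. For Rab3c the E12.5 levels were 16.6, 9.28 and 12.3 CPM in WT and 34.4, 9.83 and 14.1 CPM in HARE5Hs/Hs, and the E14.5 levels 109, 82.9 and 74.4 CPM and 102, 149 and 179.9 CPM. Neither gene overlapped between ages. Rab3a rose by 2.32 (SE 0.28, edgeR adjusted p = 0.000187) in WT and by 2.38 (SE 0.27, edgeR adjusted p = 7.78e-05) in HARE5Hs/Hs, and Rab3c by 2.81 (SE 0.40, edgeR adjusted p = 0.000433) in WT against 2.88 (SE 0.39, edgeR adjusted p = 0.000172) in HARE5Hs/Hs. Rph3a stood at 5.48, 2.33 and 1.32 CPM in WT and 7.95, 2.36 and 0.732 CPM in HARE5Hs/Hs at E12.5, and at 15.8, 11.1 and 10.49 CPM and 16.3, 31.9 and 31.7 CPM at E14.5. Rph3a rose by 2.03 (SE 0.66, edgeR adjusted p = 0.0312) in WT and by 2.85 (SE 0.66, edgeR adjusted p = 0.00431) in HARE5Hs/Hs. Without E12.5 replicate 1 of the genotype concerned these were 2.74 and 4.08, and the value of Rab3c in HARE5Hs/Hs was 3.60. The call of Rph3a in WT was lost without E12.5 replicate 2 (1.89), E12.5 replicate 3 (1.69), E14.5 replicate 1 (1.81) or E14.5 replicate 2 (2.10).

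CAPS proteins prime dense-core vesicles, which carry peptides and growth factors. For Cadps the E12.5 levels were 59.9, 28.6 and 49.1 CPM in WT and 60.3, 29.4 and 49.3 CPM in HARE5Hs/Hs, and the E14.5 levels 158, 145 and 132 CPM and 142, 123 and 124 CPM. Cadps2 stood at 8.03, 8.81 and 9.16 CPM in WT and 11.6, 9.55 and 9.04 CPM in HARE5Hs/Hs at E12.5, and at 14.3, 11.8 and 15.6 CPM and 13.3, 13.8 and 16.2 CPM at E14.5. Both genes rose in both genotypes and neither overlapped between ages. Cadps rose by 1.66 (SE 0.26, edgeR adjusted p = 0.000664) in WT and by 1.48 (SE 0.26, edgeR adjusted p = 0.000732) in HARE5Hs/Hs, and Cadps2 by 0.68 (SE 0.17, edgeR adjusted p = 0.00843) in WT against 0.52 (SE 0.17, edgeR adjusted p = 0.023) in HARE5Hs/Hs. The call of Cadps2 in HARE5Hs/Hs was lost without E12.5 replicate 2 (0.50), E12.5 replicate 3 (0.46) or E14.5 replicate 3 (0.45).

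Genes of vesicle endocytosis rose in 3 of 4 cases in WT and 4 of 4 in HARE5Hs/Hs. For Sh3gl2 the E12.5 levels were 13.1, 6.65 and 14.4 CPM in WT and 14.3, 11.5 and 14.8 CPM in HARE5Hs/Hs, and the E14.5 levels 61.3, 56.7 and 49.1 CPM and 52.3, 72.2 and 84.9 CPM. Sh3gl2 encodes endophilin A1, which bends the membrane neck, and it rose by 2.29 (SE 0.25, edgeR adjusted p = 0.000135) in WT and by 2.36 (SE 0.25, edgeR adjusted p = 6.03e-05) in HARE5Hs/Hs. Amph stood at 14.4, 16.2 and 12.3 CPM in WT and 20.4, 11.9 and 14.2 CPM in HARE5Hs/Hs at E12.5, and at 40.5, 38.1 and 32.5 CPM and 39.4, 55.2 and 45.6 CPM at E14.5. Amph, an adaptor that brings dynamin to the neck, rose by 1.37 (SE 0.20, edgeR adjusted p = 0.00044) in WT and by 1.59 (SE 0.20, edgeR adjusted p = 0.000109) in HARE5Hs/Hs. For Synj1 the E12.5 levels were 40.7, 38.5 and 32.9 CPM in WT and 52.1, 35.1 and 40.4 CPM in HARE5Hs/Hs, and the E14.5 levels 78.6, 72.6 and 55.8 CPM and 80.8, 92.5 and 96.6 CPM. Synj1, the gene of a lipid phosphatase needed to shed the clathrin coat, rose by 0.88 (SE 0.16, edgeR adjusted p = 0.00143) in WT and by 1.08 (SE 0.16, edgeR adjusted p = 0.000256) in HARE5Hs/Hs. Dnm1 stood at 34.6, 17.2 and 17.2 CPM in WT and 28.3, 22.3 and 16.7 CPM in HARE5Hs/Hs at E12.5, and at 32.0, 24.8 and 21.7 CPM and 28.5, 48.5 and 61.9 CPM at E14.5. Dnm1 encodes the neuronal dynamin that cuts the neck, and 1 E12.5 WT embryo was above all 3 E14.5 WT embryos. Its log2 fold change in WT was 0.19 (SE 0.32, edgeR adjusted p = 0.687), and it rose in HARE5Hs/Hs by 1.04 (SE 0.32, edgeR adjusted p = 0.0198). That call was lost without E12.5 replicate 2 (1.05), E12.5 replicate 3 (0.88), E14.5 replicate 2 (1.00) or E14.5 replicate 3 (0.79).

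Close relatives within a family were set against each other. The ratio of their FPKM values was taken in each embryo and compared between ages by a 2-sided exact permutation test of 3 against 3, whose smallest possible p is 0.1. Over the 24 tests of 12 pairs no adjusted p was below 0.12. The ratio of Unc13a to Unc13b ran from 0.103 to 0.108 at E12.5 and from 0.411 to 0.445 at E14.5 in WT, and from 0.120 to 0.218 and from 0.431 to 0.686 in HARE5Hs/Hs. The ratio of Cplx1 to Cplx2 ran from 0.0343 to 0.0570 and then from 0.180 to 0.235 in WT, and from 0.0772 to 0.129 and then from 0.183 to 0.364 in HARE5Hs/Hs. Each time the scarcer relative gained on the more abundant one and the ages did not overlap.

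In 3 other pairs the scarcer relative came level with its partner or passed it. Slc17a7 to Slc17a6 went from between 0.517 and 0.689 to between 0.925 and 1.33 in WT, and from between 0.538 and 0.651 to between 1.28 and 1.53 in HARE5Hs/Hs. Syn2 to Syn1 went from between 0.105 and 0.560 to between 1.24 and 1.27 in WT, and from between 0.150 and 0.530 to between 0.974 and 1.68 in HARE5Hs/Hs. Ppfia2 to Ppfia3 went from between 0.144 and 0.308 to between 0.825 and 1.02 in WT, and from between 0.132 and 0.498 to between 0.871 and 1.19 in HARE5Hs/Hs. VGLUT1 was thus below VGLUT2 in all 6 E12.5 embryos and above it in 5 of 6 E14.5 embryos.

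The remaining pairs kept their order in nearly every embryo. Vamp1 to Vamp2 was between 0.0431 and 0.0732 at E12.5 and between 0.0275 and 0.0355 at E14.5 in HARE5Hs/Hs, and overlapped between ages in WT. Rims1 to Rims2 was between 0.125 and 0.268 and then between 0.369 and 0.567 in WT, and between 0.0827 and 0.348 and then between 0.360 and 1.48 in HARE5Hs/Hs. Rab3c stayed the scarcer of both Rab3 genes, at 0.107 to 0.159 of Rab3a at E12.5 and 0.148 to 0.222 at E14.5. Cadps2 to Cadps was between 0.154 and 0.383 at E12.5 and between 0.0927 and 0.155 at E14.5. Syn3 to Syn1 was between 0.630 and 0.736 and then between 0.299 and 0.372 in WT, and overlapped between ages in HARE5Hs/Hs. Sv2c to Sv2a was between 0.0201 and 0.0935 at E12.5 and between 0.0104 and 0.0228 at E14.5, and Sv2b to Sv2a overlapped between ages in both genotypes.

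**Figure D3:**
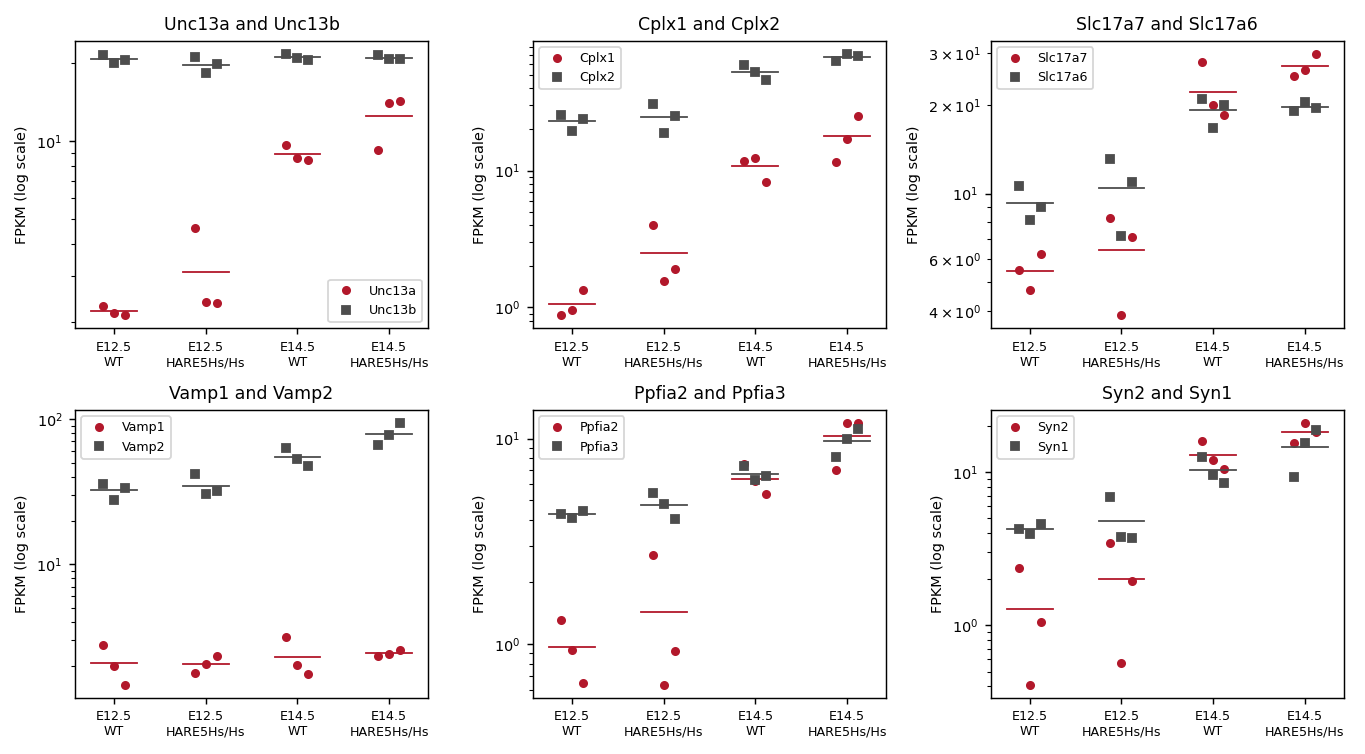
FPKM (log scale) of 6 pairs of relatives in the 4 groups, 1 point per embryo (n = 3) and a line at the group mean. Red circles are the first gene of each title and dark squares the second. Unc13b stays level while Unc13a climbs, and Slc17a7, Syn2 and Ppfia2 reach or pass their partner at E14.5.

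Of 93 further genes of vesicle release and recycling listed beside the 45, 90 were in the tables and 84 passed the filter. In WT 43 of 84 rose and 8 fell, beside 20% and 15.2% of all genes. In HARE5Hs/Hs 42 rose and 10 fell, beside 23.7% and 22%, with medians of 0.36 in WT and 0.45 in HARE5Hs/Hs. The smallest p-values among those that rose in WT belonged to Rab3d, a Rab3 form of secretory cells, the endocytic scaffold Itsn1, the proton pump subunit Atp6v0a1, Snap47, the auxilin gene Dnajc6 and Sypl2. Rab3d rose by 1.55 (SE 0.15, edgeR adjusted p = 6.16e-05), Dnajc6 by 2.44 (SE 0.34, edgeR adjusted p = 0.000393) and Sypl2 by 2.15 (SE 0.31, edgeR adjusted p = 0.000446). Itsn1, Atp6v0a1 and Snap47 rose by 0.78, 0.84 and 0.65 on the log2 scale. In HARE5Hs/Hs Rab3d, Itsn1, Atp6v0a1, Snap47 and Scamp5 were among those with the smallest p-values and rose by 1.89, 0.93, 0.96, 0.73 and 1.30 on the log2 scale.

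The share that fell was not above that of all genes, and the genes are named for description. Syngr2 is the broadly expressed synaptogyrin, Unc13d serves granule release in blood cells, Snap23 is the SNAP-25 relative of most cell types and Slc18a2 loads vesicles with monoamines. In WT the smallest p-values among those that fell were those of Syt13, Syngr2, Synj2, Unc13d, Rab27b and Slc18a2, with log2 fold changes of −1.69, −0.84, −1.46, −1.58, −1.47 and −3.08. In HARE5Hs/Hs they were those of Snap23 (−0.96 (SE 0.14, edgeR adjusted p = 0.000227)), Slc18a2, Rab27b, Syt13, Synj2 and Syngr2, the last 5 with log2 fold changes of −4.24, −2.01, −1.25, −1.46 and −0.64. Vamp3, the broadly expressed synaptobrevin, and Doc2a also fell in both genotypes.

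Between genotypes no gene of the 45 passed edgeR's test. At E12.5, at E14.5, over both ages and for the interaction of genotype and age the share of all genes tested that passed was 0% each time. Members with an unadjusted edgeR p under 0.05 numbered 1, 14, 14 and 3 of 45, beside 322, 1708, 1366 and 731 of 14311 genes. DESeq2's Wald test called 1 of the 45 at E14.5 (Syn3, with a log2 fold change of 0.75, SE 0.16 and DESeq2 adjusted p = 0.0076, among 35 genes overall) and 0 in the other 3 comparisons.

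At E12.5 the median log2 fold change of HARE5Hs/Hs against WT was 0.18, with 36 of 45 genes above 0. The 5 smallest p-values belonged to Cplx1, Unc13a, Syt4, Napb and Rims2, with log2 fold changes of 1.23 (SE 0.39, edgeR adjusted p = 1), 0.51, 0.89, 0.39 and 0.26. All 3 HARE5Hs/Hs embryos were above all 3 WT embryos for Cplx1 and Unc13a, which is 2 of 45, beside 3.34% of all genes. Replicate 1 of E12.5 HARE5Hs/Hs was the highest of the 6 E12.5 libraries for 33 of 45 genes (73.3%), beside 21.4% of all genes. The same library was highest for 12 of 14 pan-neuronal markers, whose sum in it was 2908 CPM against 1643 to 1850 CPM in the other 5, and it held the highest sum of 10 interneuron and ventral telencephalon markers (181 CPM against 6.78 to 86.9 CPM). With all libraries the pan-neuronal markers had a median of 0.33 at E12.5, with 13 of 14 above 0. Without E12.5 HARE5Hs/Hs replicate 1 the median of the 45 genes was −0.06, with 16 of 45 above 0. That of the pan-neuronal markers was then −0.07, so the direction at E12.5 rested on that 1 library.

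**Figure D4:**
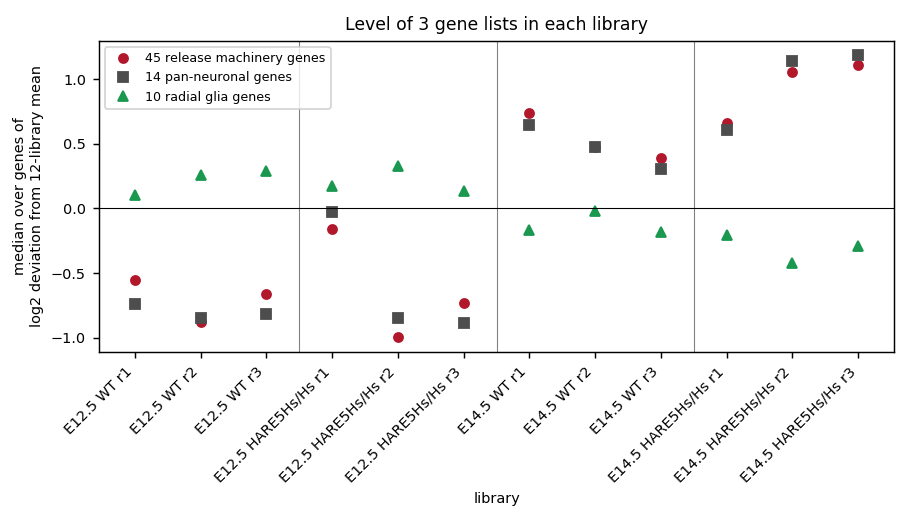
Median over the genes of a list of the log2 deviation from the 12-library mean (vertical axis), per library (horizontal axis), for the 45 release machinery genes, 14 pan-neuronal markers and 10 radial glia markers. In each library the release machinery and the pan-neuronal markers lie close together, and E12.5 HARE5Hs/Hs replicate 1 stands above the other E12.5 libraries for both.

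At E14.5 the median log2 fold change of HARE5Hs/Hs against WT was 0.48, with 41 of 45 genes above 0, and over all genes it was −0.01. All 3 HARE5Hs/Hs embryos were above all 3 WT embryos for 15 of 45 genes, beside 9.48% of all genes. These were Syn3, Syt1, Syt4, Syt5, Stx1a, Vamp2, Cplx2, Rimbp2, Bsn, Sv2a, Syngr1, Rab3a, Rph3a, Synj1 and Ppfia3. Only Syt11, 1 of 45, was lower in all 3, and the share of all genes with that pattern was not counted. The smallest p-values belonged to Syn3 (0.73 (SE 0.14, edgeR adjusted p = 0.342)), Ppfia3 (0.50 (SE 0.13, edgeR adjusted p = 0.342)), Vamp2 (0.51 (SE 0.16, edgeR adjusted p = 0.342)), Syngr1 (0.60 (SE 0.20, edgeR adjusted p = 0.342)) and Syt1 (1.25 (SE 0.41, edgeR adjusted p = 0.342)). None passed. Syn3 stood at 32.2, 28.8 and 27.4 CPM in WT and 44.5, 56.0 and 46.0 CPM in HARE5Hs/Hs.

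Embryos within the E14.5 groups also differed from one another. Replicate 3 of HARE5Hs/Hs was highest of the 6 E14.5 libraries for 26 of 45 genes (57.8%), beside 23.0% of all genes. It also had the fewest expected counts of the 12 libraries, 11593202. Replicate 3 of WT was lowest for 31 of 45 (68.9%), beside 22.7% of all genes, and for 12 of 14 pan-neuronal markers. Without WT replicate 3 the median of the 45 genes was 0.39, with 36 of 45 above 0. Without HARE5Hs/Hs replicate 3 it was 0.37, with 39 of 45 above 0. For Snap25 the log2 fold change was 1.33 with that library and 0.32 without it, for Rims1 1.18 and 0.54, and for Syt1 1.25 and 0.67. The pan-neuronal markers had a median of 0.47 in this comparison, and their sums were 3799 to 4921 CPM in WT and 4702 to 6500 CPM in HARE5Hs/Hs. Sums of the 10 interneuron and ventral telencephalon markers were 25.4 to 44.9 CPM in WT and 64.9 to 144 CPM in HARE5Hs/Hs. Sums of the 8 erythroid markers, of which 7 were in the fit, were 736 to 2234 CPM in WT and 2502 to 5724 CPM in HARE5Hs/Hs. All 8 meninges and mesenchyme markers had log2 fold changes below 0, with a median of −1.17 and none past the test, and their sums were 93.5 to 844 CPM in WT and 11.1 to 436 CPM in HARE5Hs/Hs. The part of these lists in the genotype values was not tested.

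**Figure D5:**
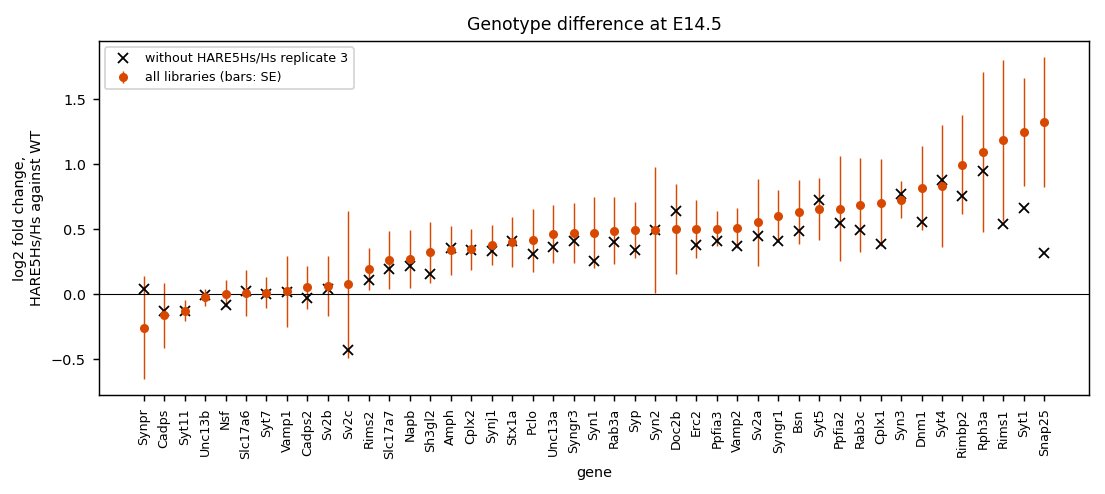
Log2 fold change of HARE5Hs/Hs against WT at E14.5 (vertical axis) for each of the 45 genes (horizontal axis, sorted), with SE bars, and the value without HARE5Hs/Hs replicate 3 (crosses). Most points are above 0 and none passed the edgeR test, and the crosses of Snap25, Rims1 and Syt1 are well below their points.

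Over both ages the median was 0.31, with 40 of 45 above 0 and no gene past the test. The smallest p-values were those of Syn3 (0.40 (SE 0.10, edgeR adjusted p = 0.508)), Cplx1, Ppfia3, Unc13a and Vamp2. Without E12.5 HARE5Hs/Hs replicate 1 that median was 0.17. Pan-neuronal markers had a median of 0.38 over both ages, with 14 of 14 above 0, and of 0.16 without the same library. For the interaction, which asks whether the rise with age differed between genotypes, the median was 0.20, with 32 of 45 above 0. With 1 library left out, that median was lowest without E12.5 HARE5Hs/Hs replicate 2, at 0.06 with 25 of 45 above 0. It was highest without E12.5 HARE5Hs/Hs replicate 1, at 0.47 with 39 of 45 above 0. The smallest p-values of the interaction were those of Syn3 (0.66 (SE 0.20, edgeR adjusted p = 0.921)), Rimbp2 (1.47 (SE 0.54, edgeR adjusted p = 0.921)), Syngr1, Stx1a and Dnm1. The rise of Syn3, Rimbp2 and Dnm1 past the threshold in HARE5Hs/Hs and not in WT is thus not shown to differ between genotypes.

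In the authors' deposited tables, 37 of the 45 genes rose with age in WT and 39 in HARE5Hs/Hs at an adjusted p under 0.05, and none fell. Exons of Syn1, Syn2, Rab3a, Unc13a and Ppfia2 overlap those of a coding gene on the opposite strand (Araf, Timp4, Mpv17l2, Colgalt1 and Acss3). The library kit keeps the strand, but the strand setting of the counting is not given in the sources used here, so reads of such pairs may be mixed.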

How the data were processed

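Libraries of cortical mRNA from 12 single embryos were made with a stranded kit, per the labels' protocols. The submitters' processing notes name STAR, DESeq2 and build mm39, without versions. Per the file headers, the deposited tables hold the authors' expected counts and FPKM per library, and log2 fold changes with p-values and adjusted p-values for age in each genotype. Each table also has 12 columns of 6 libraries that match no sample, not used here.

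The whole-number expected counts were fitted with edgeR 4.0.16 (R 4.3.3, limma 3.58.1): filterByExpr with a minimum count of 10, TMM scaling, 1 mean per group over 12 libraries, quasi-likelihood F test, adjustment over 14311 genes, threshold 0.05. The SE is the log2 fold change divided by the square root of F, an approximation. CPM are TMM-scaled; levels between genes use FPKM. The fit was run on simulated counts with planted age changes, drawn independently in each library. No shift of a whole library was simulated, so that run does not cover libraries in which many genes move together. P-values are 2-sided, with 6 comparisons; the genotype comparisons share libraries with those of age.

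Members and lists were chosen with earlier results of these data known. Values in every library are given for up to 3 genes per role with the highest FPKM and for those not passing with age. For Syt1 and Cplx1 they were added after their values were seen. Genotype comparisons name the 5 smallest p-values, and further release genes the 6 in each direction, of which 1 is not reported here. Alternatives were DESeq2 1.42.0, its size factors, a fit of only the compared libraries, a block on replicate number, no low-count filter or one at CPM 1 in 3 libraries, and each library left out.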

Additional observations from a re-analysis of the deposited data

How the results depend on the processing

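Counts of genes that rose with age held within 1.5 times under every alternative run. With 1 library at a time left out they were 32 to 35 (WT) and 37 to 39 (HARE5Hs/Hs) for the 45 genes, and with DESeq2 37 and 39; for the 84 further genes, rises and falls together came to 38 to 49 and 49 to 54. The DESeq2 Wald test moved the count at E14.5 between genotypes from 0 to 1 (Syn3); no edgeR alternative called any of the 45 between genotypes. In WT some genes that did not pass changed sign when 1 library was left out: Syt7 ranged from −0.0361 (without E12.5 replicate 2) to 0.229, Vamp1 from −0.143 (without E14.5 replicate 1; −0.01 without E12.5 replicate 3) to 0.409, Rimbp2 from −0.0708 and Dnm1 from −0.00274 (both without E14.5 replicate 1) to 0.341 and 0.582, and Nsf from −0.0506 (without E14.5 replicate 2; −0.03 without E12.5 replicate 1) to 0.127. The cause was not tested. Calls of Syt1, Stx1a, Synpr and Rph3a in WT and of Cadps2 and Dnm1 in HARE5Hs/Hs were lost in at least 1 alternative, while Rims1 in WT passed in 3 and Syt7 in HARE5Hs/Hs in 1 (0.27, only the compared libraries). E12.5 HARE5Hs/Hs replicate 1 and E14.5 HARE5Hs/Hs replicate 3 were also left out together, a choice made after seeing the data. The genotype medians were then −0.07 at E12.5, 0.37 at E14.5 and 0.11 over both ages, and the interaction median was 0.40. Of the 10 genes highest by FPKM, 7 were also among the 10 highest by CPM.

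With the replicate number as a block, 36 and 39 of the 45 genes and 48 and 52 of the 84 passed with age, and 0 passed in any genotype comparison. Correlations of same-numbered libraries ran from −0.443 to 0.336, so the numbers were not taken to pair embryos. Counts of Sv2c, the lowest gene, summed to 30 to 52 per group.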
